A study of Homo sapiens with 15 samples.

Results

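The aldehyde dehydrogenases (ALDH) and the aldo-keto reductases (AKR) were described across 15 established non-small-cell lung cancer (NSCLC) lines. Members were all genes whose symbol starts with ALDH or AKR followed by a digit and that had a probe set assigned to a single gene, with the brightest probe set over the lines taken for each gene. This rule gave 31 of the 18132 genes measured, 19 ALDH and 12 AKR genes, and used no radiation response. Each line (A549, Calu1, Calu3, H1437, H1650, H1781, H1975, H2009, H2228, H226, H3122, H358, H460, H520 and HC827, which is HCC827) was an untreated culture hybridised to 1 Affymetrix PrimeView array, on which sets of short probes report each transcript as a log2 expression value. The study's methods list 9 lines as adenocarcinoma, 3 as squamous carcinoma (Calu1, H226 and H520), 2 as bronchioloalveolar carcinoma (H1437 and H358) and 1 as large cell carcinoma (H460). The study compared lines by SF2, the fraction of cells that still form colonies after 2 Gy of photons, and the question for these enzymes was whether their expression varied with it. The lines are the replicates: there was no repeat array of any line, so a difference between 2 lines has no error of its own and p-values measure the spread between lines.

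Aldehyde dehydrogenases use NAD or NADP to oxidise reactive aldehydes to acids, and individual members work on retinal, acetaldehyde, lipid aldehydes, amino acid breakdown products or folate. Aldo-keto reductases use NADPH to reduce carbonyl groups of aldehydes, steroids, prostaglandins and retinal to alcohols. In lung cancer both families are known for the handling of smoke and drug-derived carbonyls, ALDH1A1 is used as a marker of stem-like tumour cells, and several AKR1 genes and ALDH3A1 are known targets of NRF2, the transcription factor that KEAP1 normally keeps low and that drives antioxidant genes.

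The AKR1C genes lie side by side on chromosome 10, and 3 of them shared a wide pattern over the lines, so windows from their promoter entries are shown first to make plain how alike these copies are. The windows come from RefSeq on GRCh38.p14, hold 300 bases each, and are AKR1C1 at chr10:4963165-4963464 on the plus strand, AKR1C2 at chr10:5003808-5004107 on the minus strand and AKR1C3 at chr10:5048531-5048830 on the plus strand. The AKR1C1 and AKR1C3 windows span the start of the annotated gene, while the AKR1C2 window lies inside the annotated span of its gene and not at its outer start. Capitals mark matches on either strand to TGANNNNGC, a loose form of the antioxidant response element that NRF2 is known to bind.
AKR1C1: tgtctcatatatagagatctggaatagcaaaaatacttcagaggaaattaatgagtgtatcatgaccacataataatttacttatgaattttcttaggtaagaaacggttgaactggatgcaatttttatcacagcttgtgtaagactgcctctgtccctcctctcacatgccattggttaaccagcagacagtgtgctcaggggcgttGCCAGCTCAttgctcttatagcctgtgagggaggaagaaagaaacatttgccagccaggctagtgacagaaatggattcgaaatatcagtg
AKR1C2: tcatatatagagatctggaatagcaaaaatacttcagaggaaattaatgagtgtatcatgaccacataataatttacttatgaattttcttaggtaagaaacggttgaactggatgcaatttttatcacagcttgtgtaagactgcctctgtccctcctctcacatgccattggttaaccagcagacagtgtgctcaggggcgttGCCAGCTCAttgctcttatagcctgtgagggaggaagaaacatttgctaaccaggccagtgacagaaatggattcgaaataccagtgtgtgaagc
AKR1C3: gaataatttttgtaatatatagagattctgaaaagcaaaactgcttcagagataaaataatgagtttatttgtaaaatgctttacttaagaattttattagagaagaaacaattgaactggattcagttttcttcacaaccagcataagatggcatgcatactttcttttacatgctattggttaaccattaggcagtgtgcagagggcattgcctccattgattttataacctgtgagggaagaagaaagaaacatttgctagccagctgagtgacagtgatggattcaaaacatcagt
The AKR1C1 and AKR1C2 windows were identical at 288 of 292 aligned bases (98.6%), whereas AKR1C1 and AKR1C3 were identical at 227 of 291 (78.0%) and AKR1C2 and AKR1C3 at 220 of 283 (77.7%). The loose motif was present once in AKR1C1 and once in AKR1C2, in the same surrounding letters, and 0 times in the AKR1C3 window. It is common: 41.8% of the 35116 promoter windows of this length held it, and 10 of the 23 members with windows held it in at least 1 of them. The stricter TGACNNNGC, every match of which is also a match of the loose form, was held by 13.3% of all windows and by 1 member, AKR7A2. The shares count windows, whereas a member was counted when any of its windows matched, so shares and member counts are not alike. For the 3 AKR1C genes shown, 1 window each was read. These are matches of letters and not measured binding.

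Which members were expressed was read from a threshold of log2 7, which is a level on the array's scale and not a detection call. Of the 31 members, 4 were above it in all 15 lines, 19 in some and 8 in none, against 27.7%, 32.6% and 39.7% of all genes. The 4 ubiquitous members were AKR7A2, a reductase of aflatoxin and succinic semialdehyde (8.75 to 9.76), ALDH18A1, the first enzyme of proline synthesis (8.82 to 10.33), ALDH3A2, the microsomal fatty aldehyde dehydrogenase (7.92 to 10.65), and ALDH9A1, which acts on aminoaldehydes of carnitine synthesis (8.73 to 10.13). The 8 members at or below log2 7 in every line were the liver enzymes AKR1C4 (highest value 5.65, in A549), AKR1D1 (4.20) and ALDH8A1 (4.38), the aflatoxin reductase AKR7A3 (4.55), AKR1C8 (4.47), the pseudogene AKR1C6P (3.49) and the formyltetrahydrofolate dehydrogenases ALDH1L1 (5.99) and ALDH1L2 (6.72, in H460).

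The families varied widely between lines. A range of at least 4 log2 units over the lines was found for 13 of the 31 members (41.9%; 8 ALDH and 5 AKR), while 12% of all 18132 genes had such a range. The median range was 2.72 log2 units over the members and 1.64 over all genes. A549, the line second highest in SF2, had the most members above log2 7, 20 in all (13 ALDH and 7 AKR), followed by H1437 with 19 and H460 with 17. H1975, the line with the highest SF2, had the fewest, 9, and H1650 had 10.

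**Figure D1:**
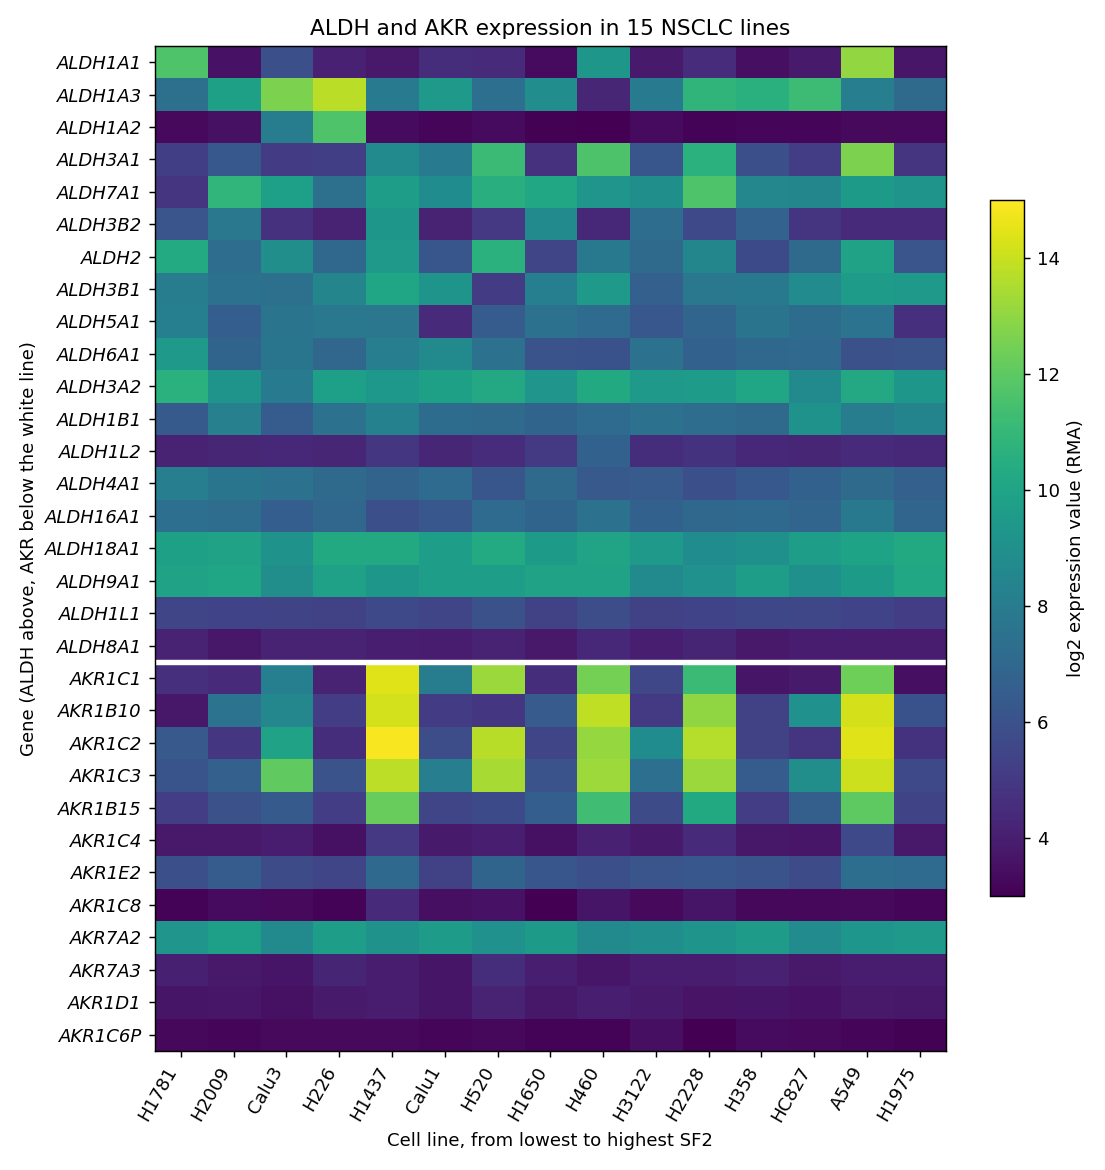
Log2 expression values of the 31 members (rows, sorted by range within each family) in the 15 lines (columns, from the lowest to the highest SF2), with colour as the log2 value from 3 to 15. Colours are to be compared along a row, since different probe sets have no common scale. The 5 AKR1 rows AKR1C1, AKR1B10, AKR1C2, AKR1C3 and AKR1B15 are bright in A549, H1437, H2228 and H460. Among these 5 rows, H520 is bright only in the 3 AKR1C rows.

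AKR1B10, a reductase of retinal and of unsaturated aldehydes, set 4 lines apart from the rest. Its values were 14.23 in A549, 14.16 in H1437, 13.85 in H460 and 12.99 in H2228, and the next lines were HC827 at 9.08, Calu3 at 8.58 and H2009 at 7.59. The other 8 lines lay between 3.79 (H1781) and 6.46 (H1650), and the range over the panel was 10.44 log2 units. The neighbouring copy AKR1B15 gave the same 4 lines, which held values from 10.27 (H2228) to 12.20 (H1437), and no other line exceeded 6.63. Pearson's r between AKR1B10 and AKR1B15 over the 15 lines was 0.96, and 2 further probe sets were assigned to both genes, so their separate contributions are uncertain. A second probe set of AKR1B10 gave r = 0.999 with the one used.

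The AKR1C genes, which reduce steroids and prostaglandins, were high in the same 4 lines and in H520. AKR1C1, an inactivator of progesterone, was 14.40 in H1437, 13.22 in H520, 12.50 in H460, 12.34 in A549 and 11.16 in H2228, with Calu3 at 8.16 and Calu1 at 8.02 and the other 8 lines between 3.51 (H1975) and 5.57 (H3122). AKR1C2, which acts on dihydrotestosterone, was 14.87 in H1437, 14.40 in A549, 13.69 in H520, 13.68 in H2228 and 13.08 in H460, with Calu3 at 9.90 and H3122 at 8.85 and a median of 6.37. AKR1C3, which forms testosterone and prostaglandin F, was 14.10 in A549, 13.83 in H1437, 13.43 in H520, 13.25 in H460 and 13.20 in H2228. For AKR1C3 the next line, Calu3, was close at 12.08, and H1975 was lowest at 5.67. H520 was thus among the 5 highest lines for each of the 3 AKR1C genes, while its AKR1B10 value of 4.89 was the second lowest of the panel. Over the 15 lines r was 0.95 between AKR1C1 and AKR1C2 and 0.94 between each of them and AKR1C3. A further 3 probe sets were assigned to both AKR1C1 and AKR1C2, and cross-hybridisation between these copies was not tested. They parted in Calu1, which was above the median of the lines for AKR1C1 (8.02 against 5.57) and below it for AKR1C2 (5.84 against 6.37), and in H3122, which was at the median for AKR1C1 and above it for AKR1C2 (8.85). On the other AKR1C2 probe sets H3122 was 3.315 and 5.407, beside 3.425 and 5.387 in H226, the median line. The H3122 difference thus rests on the AKR1C2 probe set used.

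ALDH3A1, which oxidises aromatic and lipid aldehydes and is induced by smoke, was 12.64 in A549, 11.67 in H460, 11.20 in H520, 10.66 in H2228, 8.72 in H1437 and 7.89 in Calu1. The other 9 lines lay between 4.71 (H1650) and 6.32 (H2009). Its highest 5 lines were therefore those of the AKR1C genes, with H1437 lower and Calu3 (5.07) not among them, and r was 0.87 with AKR1C1, 0.85 with AKR1C2, 0.83 with AKR1C3 and 0.65 with AKR1B10. AKR1C4 and AKR1C8, although at or below log2 7 in every line, had their highest values in A549 (5.65) and H1437 (4.47), beside lines with intense AKR1C1 to AKR1C3 signal.

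A list of 29 NRF2 targets outside both families, 24 of them measured, was read beside these genes. It was summarised per line as the mean deviation of the 24 genes from their own medians over the lines. This mean was 1.95 in H1437, 1.72 in H2228, 1.71 in H460 and 1.62 in A549, then 0.10 in HC827, and it was below 0 in the other 10 lines. The 4 lines with the high mean were those high in AKR1B10, and for 8 of the 24 targets all 4 lay above every other line. H520, high in the AKR1C genes and ALDH3A1, had a mean of -0.20, and only 9 of the 24 targets were above their median there. Among the targets at a high level in H520 were GPX2, a glutathione peroxidase of epithelia (12.16), and PIR, the pirin gene (10.80, second to H460). Over 15 lines r with the NRF2 target mean was 0.98 for AKR1B15, 0.95 for AKR1B10, 0.81 for AKR1C2, 0.80 for AKR1C3, 0.79 for AKR1C1 and 0.77 for ALDH3A1. Without H520 these were 0.90 for AKR1C1, 0.90 for AKR1C2, 0.89 for AKR1C3 and 0.87 for ALDH3A1. Leaving out a line high in these genes and low in the target mean raises r, so this rise is no separate observation. For ALDH1A1 it was 0.34, for ALDH1A3 -0.33 and for ALDH2 0.40. As background, A549 and H460 are known to carry KEAP1 mutations, and mutations were not analysed here.

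**Figure D2:**
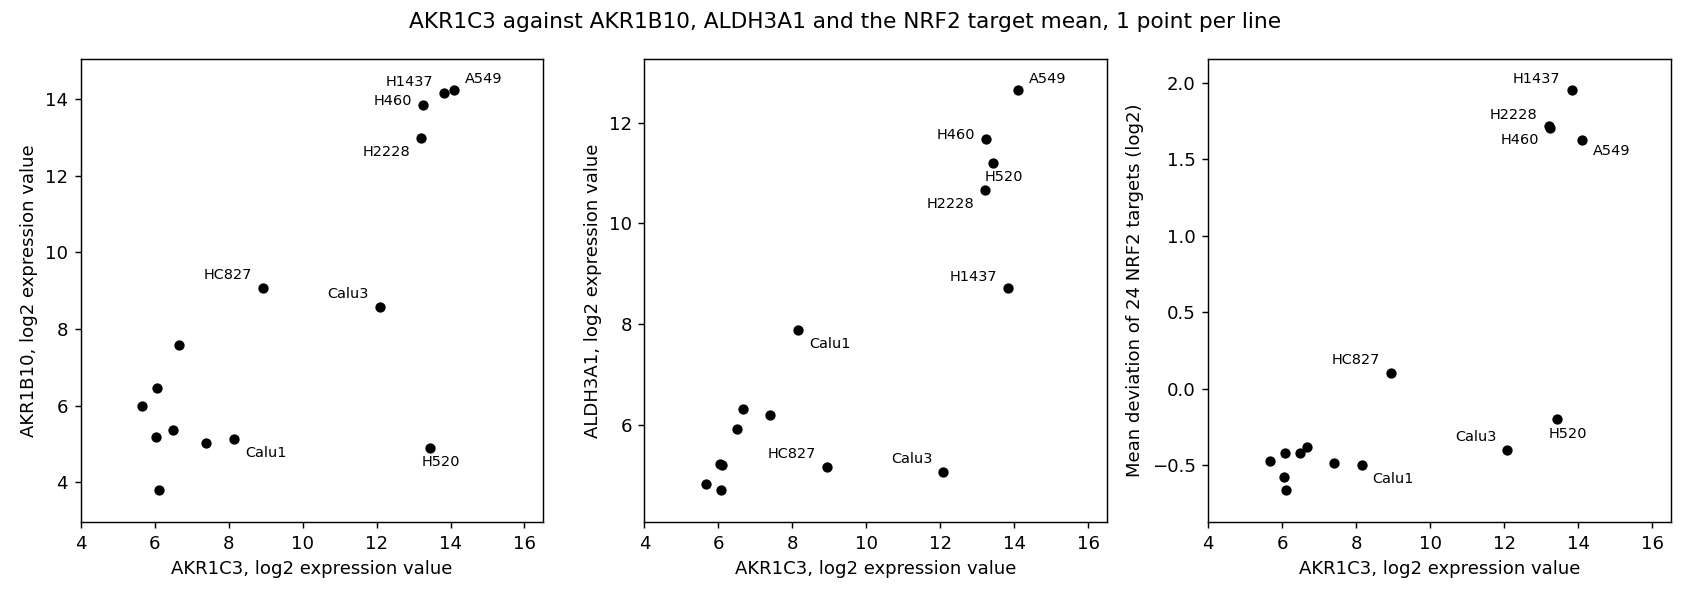
AKR1C3 log2 expression value (x axis) against AKR1B10 (left), ALDH3A1 (middle) and the mean log2 deviation of the 24 NRF2 targets (right), with 1 point per line. A549, H1437, H2228 and H460 lie at the upper right of all panels, and H520, at 13.43 for AKR1C3, lies low for AKR1B10 (4.89) and for the NRF2 target mean (-0.20) and high for ALDH3A1 (11.20).

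The 3 cytosolic retinal dehydrogenases, which make retinoic acid, were high in different lines. ALDH1A1 was 13.08 in A549, 11.68 in H1781 and 9.36 in H460, then 5.94 in Calu3, and the other 11 lines lay between 3.36 (H1650) and 4.55 (Calu1). ALDH1A2 was 11.70 in H226 and 8.02 in Calu3, and no other line exceeded 3.54. ALDH1A3 was instead above log2 7 in 14 lines: H226 was highest at 13.78, then Calu3 at 12.61, HC827 at 11.22, H2228 at 10.85 and H358 at 10.61, the median was 8.88, and H460 stood alone at 4.30. H226 and Calu3 were thus the highest lines for both ALDH1A2 and ALDH1A3 (r = 0.68), and H460 combined the lowest ALDH1A3 with the third highest ALDH1A1 (r = -0.39 between these genes). All 3 probe sets of ALDH1A1 followed each other (r with the one used of 0.996 and 0.998). For ALDH1A3, 3 of the 4 other probe sets followed the one used (r = 0.93 to 0.98) and 1 stayed between 4.73 and 6.01 (r = -0.15).

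Other genes of the retinoid pathway were read from a list of 20 genes, 17 of them measured. CRABP2, a carrier of retinoic acid, was highest in H1650 (11.18) and H358 (10.48), where ALDH1A1 was 3.36 and 3.51. RARRES1, a gene known to respond to retinoids, was 13.17 in H1437, 12.40 in H226, 11.69 in Calu3 and 9.63 in A549, and at most 7.70 elsewhere. RDH10, which makes retinal from retinol, was highest in H226 (12.31). H226 therefore held the highest values of RDH10, ALDH1A2 and ALDH1A3, and also of DHRS3 (11.28), which returns retinal to retinol. The list as a whole did not peak in H226. Its mean deviation was 0.46 there, against 1.22 in H1437, 0.715 in A549, 0.69 in Calu3 and 0.57 in H2228. In H226 CRABP2 was 5.55, STRA6 6.35 and RARB 4.63.

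**Figure D3:**
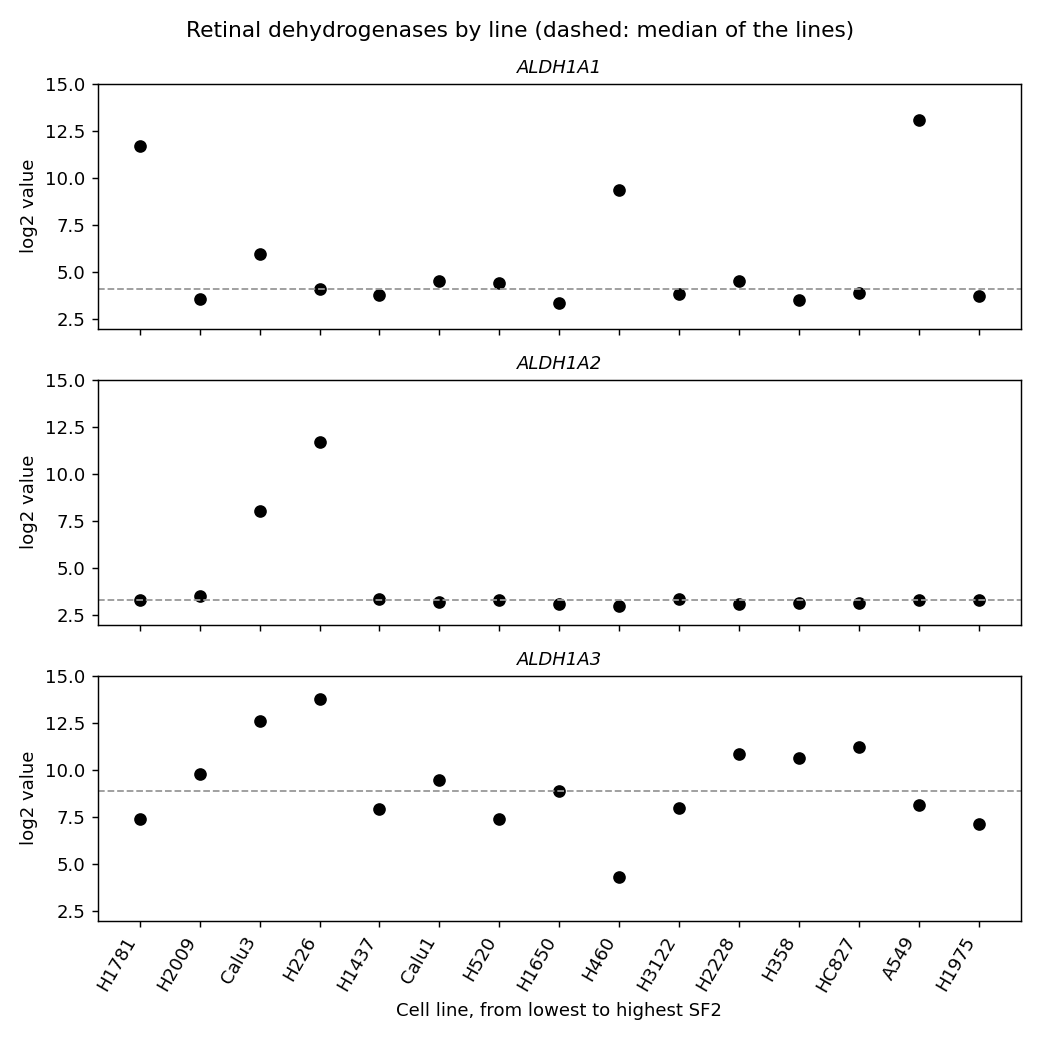
Log2 expression values (y axes) of ALDH1A1, ALDH1A2 and ALDH1A3 in the 15 lines (x axis, from the lowest to the highest SF2), with the median of the lines dashed. ALDH1A1 is high in A549, H1781 and H460, ALDH1A2 in H226 and Calu3, and ALDH1A3 is above log2 7 in all lines but H460.

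ALDH2, the mitochondrial enzyme that clears acetaldehyde, ranged from 5.49 in H1650 to 10.67 in H520, with a median of 7.27, and H1781 (10.36), A549 (9.90) and H1437 (9.49) followed. Its second probe set gave r = 0.998. ALDH7A1, which acts on lysine breakdown products and betaine aldehyde, was between 7.44 and 11.70 in 14 lines, highest in H2228, and 4.85 in H1781 alone. ALDH3B1, an oxidiser of lipid aldehydes at membranes, ran from 5.08 in H520 to 10.12 in H1437 with a median of 8.19. The second lowest line for ALDH3B1 was H3122, at 6.69. Other ALDH3B1 probe sets followed the one used (r = 0.92 and 0.87) but ran only from 5.62 to 7.53 and from 6.915 to 9.10. A range of at least 4 log2 units for ALDH3B1 thus rests on 1 probe set. Its paralog ALDH3B2 was 9.35 in H1437, 8.70 in H1650, 7.79 in H2009 and 7.27 in H3122 and at most 6.75 elsewhere. Its 3 other probe sets reached at most 5.53 in any line (r = 0.42 to 0.70 with the one used), so the ALDH3B2 pattern rests on 1 probe set.

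The remaining members moved within less than 4 log2 units. ALDH5A1, which completes GABA breakdown, was highest in H1781 (8.20) and low in Calu1 (4.42) and H1975 (4.65), with every other line at 6.26 or more. ALDH6A1, the methylmalonate semialdehyde dehydrogenase of valine and thymine breakdown, ran from 6.00 in A549 to 9.46 in H1781. ALDH1B1, a mitochondrial acetaldehyde and retinal enzyme, ran from 6.38 in H1781 to 9.10 in HC827, and ALDH4A1, the second enzyme of proline breakdown, from 5.92 in H2228 to 8.15 in H1781. ALDH16A1 (5.92 to 7.84) and AKR1E2, a reductase of anhydrofructose (5.31 to 7.34), crossed log2 7 in some lines only. On the probe sets used, H1781 was therefore highest of the panel for ALDH5A1, ALDH6A1, ALDH4A1 and ALDH3A2 (10.65) and lowest for ALDH7A1, ALDH1B1 and AKR1B10. Other probe sets differed for ALDH5A1 (H1437 6.58, H1781 6.18) and ALDH4A1 (H520 6.87, H1781 6.69). For ALDH3A2 another set was highest in A549 (9.17, H1781 8.82) and a further set in H1781 (10.58). For ALDH7A1 another set was lowest in H226 (3.68, H1781 4.08).

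As context, array medians lay between 5.88 and 5.93, the 95th percentile of the ERCC control probe sets between 3.83 and 4.05, and r between arrays between 0.84 and 0.96. The difference of the 3' and 5' actin probe sets, which rises when RNA is degraded or labelled short, was 2.09 log2 units in H1781 and 1.90 in H3122, against 0.63 to 1.30 in the other 13 lines. The epithelial keratins KRT8, KRT18 and KRT19 were above log2 7 in every line, whereas EPCAM was 4.03 in H226 and 4.21 in H460. CDH1 was 3.38 in H460, 3.49 in H226, 4.33 in Calu1 and 6.945 in H520. ESRP1 was 3.41 in H460, 3.63 in Calu1, 3.68 in H226, 3.92 in A549 and 5.06 in H1975. KRT7 was 4.20 in H520. These 3 genes were above log2 7 in the lines not named for them. Of 4 leukocyte genes measured, PTPRC (at most 3.45) and CD3E (at most 4.93) were low in every line, whereas CD68 reached 9.53 in H1975, 9.21 in HC827 and 8.56 in Calu1, and CD14 reached 9.64 in H1437. The 3 squamous markers measured did not mark the same lines: KRT5 was highest in H226 (8.66), SOX2 in H520 (13.07), where KRT5 was 6.12, and DSG3 in H1650 (8.35), and in Calu1 they were 5.63, 4.47 and 4.29.

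Each member's expression was then fitted on SF2 over the 15 lines with limma, as the log2 change per 0.1 of SF2, with p-values two-sided and adjusted over all 18132 genes by Benjamini-Hochberg. No member and no gene passed an adjusted p of 0.05 (0% of genes), and the lowest adjusted p over all genes was 0.998, or 0.997 and 0.999 by permutation of Pearson's and Spearman's correlations. At an unadjusted p under 0.05 there were 826 genes (4.56%), 396 of them higher with SF2 (2.18%) and 430 lower (2.37%). Of the members 2 of 31 (6.45%) were past this level, both lower and 0 higher, which is a share close to that of all genes. Slopes were above 0 for 16 members (9 of 12 AKR and 7 of 19 ALDH) and below 0 for 15, with a median of 0.0028, while 49.0% of all genes had a slope above 0 and their median was -0.0011.

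**Figure D4:**
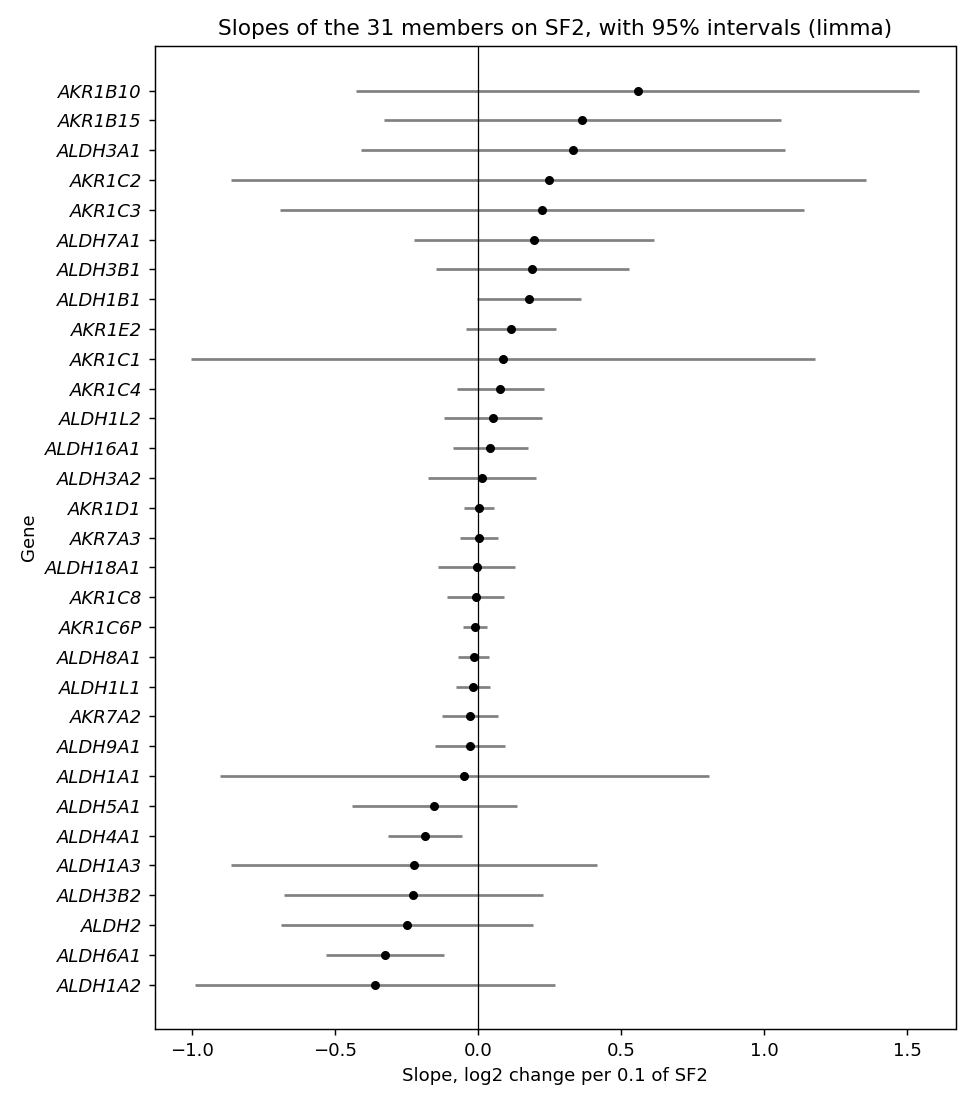
Slope of each of the 31 members on SF2 (x axis, log2 change per 0.1 of SF2; points) with its 95% interval from limma (bars). The intervals of ALDH6A1 and ALDH4A1 lie below 0, all others include 0, and those of AKR1C2, AKR1C1, AKR1B10 and AKR1C3 are the widest.

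The members with the broadest pattern gave the least certain slopes. The 5 lines high in the AKR1C genes lay on both sides of the mean SF2, 3 above and 2 below. The slope of AKR1C1 was 0.09 log2 units (95% interval -1.004 to 1.18, p = 0.866), that of AKR1C2 0.25 (-0.86 to 1.36) and that of AKR1C3 0.22 (-0.69 to 1.14). AKR1B10 had a slope of 0.56 (-0.43 to 1.54, p = 0.245) and ALDH3A1 one of 0.33 (-0.41 to 1.07, p = 0.357). For ALDH1A1 the slope was -0.05 (-0.90 to 0.81, p = 0.904), its high lines H1781 and A549 being the lowest and the second highest in SF2. These intervals include slopes of either sign, so a relation with SF2 was neither detected nor shown to be absent for these 6 members. Single lines moved them: without A549 the slope was 0.29 for AKR1B10, 0.07 for ALDH3A1, -0.18 for AKR1C1, -0.06 for AKR1C2, -0.02 for AKR1C3 and -0.51 for ALDH1A1. Without H1975 it was 0.88 for AKR1B10, 0.63 for ALDH3A1, 0.44 for AKR1C1, 0.63 for AKR1C2 and 0.58 for AKR1C3, and without H1781 it was 0.46 for ALDH1A1. The sign thus turned for the 3 AKR1C genes and for ALDH1A1.

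ALDH6A1 had the lowest p of the members and only 1 probe set, so its pattern could not be compared on another. Its values were 9.46 in H1781, 8.68 in Calu1, 8.13 in H1437, 7.67 in Calu3, 7.54 in H3122 and 7.49 in H520, and 6.00 in A549, 6.03 in H460 and 6.09 in both H1650 and H1975, with the other 5 lines between 6.72 and 7.09. The lines below the mean SF2 thus included the 4 highest, and those above it the 4 lowest. The slope was -0.33 log2 units per 0.1 of SF2 (SE 0.096, 95% interval -0.53 to -0.12, p = 0.00427 and adjusted p = 0.998 by limma). Pearson's r was -0.67 (permutation p = 0.00667, adjusted 0.997) and Spearman's rho -0.58 (permutation p = 0.0250, adjusted 0.999), and r was -0.66 without H1781 and H2009, the 2 lines farthest from the median SF2. The unadjusted p stayed under 0.05 when any 1 of the 15 lines was left out, with slopes from -0.42 to -0.23, and the slope was -0.24 (p = 0.0361) without H1781 and H3122, the lines with the high actin difference.

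ALDH4A1 was 8.15 in H1781, 7.66 in H2009 and 7.49 in Calu3, the 3 lines lowest in SF2, and its other lines lay between 5.92 (H2228) and 7.21 (Calu1). The slope was -0.19 (SE 0.061, 95% interval -0.32 to -0.06, p = 0.00769 and adjusted p = 0.998 by limma), r was -0.64 and rho -0.62 (permutation p = 0.0106 and 0.0157, adjusted 0.997 and 0.999). Without H1781 and H2009 r was -0.33, so the relation rests on those lines. The slope was -0.14 (p = 0.0575) without H1781 and -0.13 (p = 0.0712) without H1781 and H3122. A second probe set of ALDH4A1 hardly followed the first (r = 0.16), ran only from 6.09 to 6.87 and had r = -0.48 with SF2. On the probe sets used, H1781 was highest for both ALDH6A1 and ALDH4A1. It also had the highest actin difference, and the part of RNA quality in its values was not tested.

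ALDH1B1 and AKR1E2 had the next lowest p, with slopes above 0. ALDH1B1 was lowest in H1781 (6.38) and Calu3 (6.48) and highest in HC827 (9.10), H1975 (8.42), H1437 (8.28), H2009 (8.23) and A549 (8.06), and its slope was 0.18 (SE 0.085, 95% interval -0.004 to 0.36, p = 0.0544, adjusted p = 0.998 by limma), with r = 0.48 and rho = 0.45. By limma the ALDH1B1 slope was 0.27 (p = 0.00511) without H2009 but 0.14 (p = 0.19) without H1781. It was 0.13 (p = 0.118) without HC827. AKR1E2 was highest in A549 (7.34), H1975 (7.18) and H1437 (7.12) and had a slope of 0.12 (SE 0.074, p = 0.139). By Spearman's rho 4.12% of all genes had a permutation p under 0.05, and among the members ALDH6A1, ALDH4A1 and ALDH1A2 (rho = -0.52) did, the last with a slope of -0.36 and a p of 0.241 by limma. Outside H226 and Calu3, ALDH1A2 was at most 3.54, below the 95th percentile of the ERCC controls (3.83 to 4.05). Its ranks in those lines therefore order values near the floor.

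**Figure D5:**
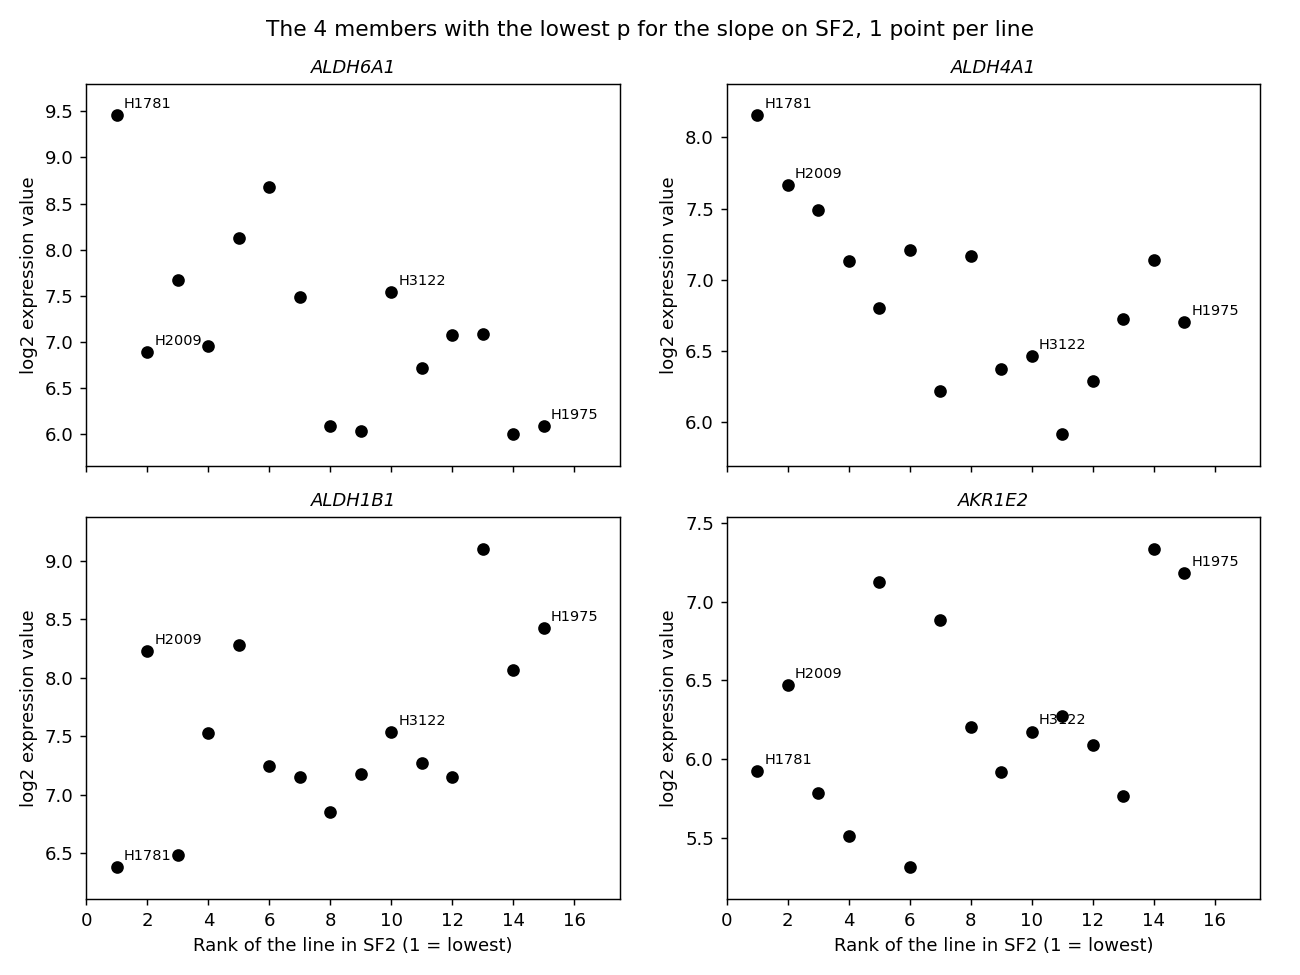
Log2 expression values (y axes) of ALDH6A1, ALDH4A1, ALDH1B1 and AKR1E2 against the rank of each line in SF2 (x axes, 1 is the lowest), with 1 point per line. ALDH6A1 and ALDH4A1 are highest in H1781, the line lowest in SF2 (9.46 and 8.15), and ALDH1B1 is lowest there (6.38).

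The lists of neighbouring pathways gave few genes past the unadjusted level, which 4.56% of all genes passed. Of the 24 NRF2 targets 20 had a slope above 0 and 0 had a p under 0.05 in either direction, with a median slope of 0.13 and the lowest p for SRXN1, sulfiredoxin (0.27, p = 0.0981), UGDH (0.29, p = 0.109) and OSGIN1 (0.21, p = 0.120). The 24 slopes come from the same 15 lines and are not separate observations. Of 17 retinoid genes 7 had a slope above 0 and 0 passed. DHRS3 had the lowest p of that list (slope -0.25, p = 0.0957). Of 22 other alcohol and carbonyl oxidoreductases 12 had a slope above 0 and 1 passed, HSD11B1, the cortisol-forming reductase (slope 0.05, p = 0.0245), whose values of 3.65 to 4.25 were near the ERCC controls. Of 11 proline and folate genes 4 had a slope above 0 and 1 passed in the lower direction, PYCR1, the last enzyme of proline synthesis (slope -0.18, p = 0.0316).

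Genes outside both families with the most similar pattern were listed by Pearson's r over the 15 lines, among 10919 genes with a value above log2 7 in some line, and are given as a description. For AKR1B10 they were ABCC2, an efflux pump for conjugates (r = 0.90), KYNU (0.87) and UGDH (0.86), and for AKR1B15 ABCC2 (0.89), DDIT4L (0.89) and CYP4F11 (0.88). For AKR1C1 they were JAKMIP3 (0.89), PIR (0.86) and TRBV9 (0.85), for AKR1C2 KIR3DL2 (0.91), TRBV9 (0.88) and JAKMIP3 (0.87), and for AKR1C3 SPP1 (0.88), FOXQ1 (0.86) and the retinoic acid receptor RARB (0.84). TRBV9 and KIR3DL2 are lymphocyte genes, and their probe sets ran only from 5.89 to 7.52 and from 8.01 to 8.84. What these probe sets measured in the lines was not tested. For ALDH3A1 the nearest genes were NAP1L2 (0.89), JAKMIP3 (0.89) and MAFG (0.86), which encodes a small MAF partner of NRF2.

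For the retinal dehydrogenases the nearest genes were others, and none was shared between them. ALDH1A1 was followed by LHX8 (0.85), SEC11C (0.81) and NICN1 (0.81), ALDH1A2 by SERPING1 (0.98), DSC3 (0.97) and NFKBIE (0.91), and ALDH1A3 by FGD6 (0.88), PHC2 (0.87) and EPHA2 (0.83). For ALDH1A2 such values rest on H226 and Calu3, the only lines in which it was raised. ALDH2 was followed by CMTM5 (0.89), KRTAP12-3 (0.85) and BMP8B (0.85), ALDH3B1 by RNF135 (0.89), SLC25A43 (0.86) and FAM120C (0.85), and ALDH3B2 by GDPD3 (0.90), FAM83A (0.88) and the epithelial transcription factor OVOL1 (0.87). ALDH7A1 had no gene above 0.78, its nearest being GOLGA8A (0.78), LDHA (0.77) and MAT2B (0.77).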

How the data were processed

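RNA of 15 untreated NSCLC lines was measured on 1 PrimeView array each. The authors deposited 1 log2 value for each probe set and line, computed by RMA (affy 1.64.0, per the submitters' processing notes). RMA subtracts background, equalises the arrays' distributions and summarises probes, so differences in total signal are removed and low signals compressed. Precision is limited by the number of arrays. Scan dates and batches are not given in the sources used here. The methods name Cy3 or Cy5 labelling, a reference RNA of normal lung epithelium, a miRNeasy kit and several media. The labels name biotin-labelled cRNA of single samples, Trizol and DMEM. No ratio to a reference was formed.

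Of 49495 probe sets, 100 ERCC and 102 AFFX controls were left out. Among the remaining 49293, single-gene sets numbered 44988 by the platform annotation, multi-gene sets 1832 and unannotated sets 2473; single-gene sets were kept. Of their gene IDs 44961 matched RefSeq (GRCh38.p14) and 0 symbols changed. The array's genome build is not given in the sources used here. The second deposited table, of 49395 probe sets, differed by at most 5.0e-09. Of 76 probe sets carrying a member's symbol, 6 carried a second gene's too.

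GEO's labels give no response groups, so SF2 from the study's table, matched by line name, served as a continuous predictor (H520's comes from the literature). Slopes were fitted with limma 3.58.1 (lmFit, eBayes; statmod 1.5.0, R 4.3.3), adjusted over 18132 genes. Correlations used 100000 permutations. The fit was tested on simulated data. Permutations and summaries were run in pandas 2.3.3, scipy 1.17.1 and numpy 2.4.6 under Python 3.11.15, global promoter alignments in biopython 1.88 and figures in matplotlib 3.10.9. Members and lists were chosen with earlier results of these data known. Named in full were members with a range of at least 4 log2 units and the 4 with the lowest p, with 3 similar genes for each wide member and up to 3 genes per list. Retinoid genes named for their levels, and GPX2 and PIR, were chosen after their values were seen. Alternatives covered the split at the mean SF2, ranks, histology, lines left out, weights, scaling, moderation, probe sets and dim genes. The count of members above log2 7 without H1781 and H3122 was added after the data were seen.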

Additional observations from a re-analysis of the deposited data

How the results depend on the processing

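Under every setting tried 0 genes passed an adjusted p of 0.05 by limma, and the lowest adjusted p was 0.0803, without H2009. An ordinary Student's t-test, of which the study used the permutation form, between the lines above and below the mean SF2 gave 596 genes at an unadjusted p under 0.05 and 0 after Benjamini-Hochberg (lowest adjusted p = 0.995). At an unadjusted p under 0.05 there were 826 genes with all lines, 1268 in the adenocarcinoma lines and, with 1 line left out, 541 (without H1975) to 1178 (without H2009). Of the members 2 were past that level with all lines, 1 without H1781 and H3122 and 1 to 3 with 1 line left out, the lowest being without H1781. ALDH4A1 was the member lost. ALDH1B1 came under 0.05 without H1437 (slope 0.19), H1650 (0.18), H2009 (0.27) or H358 (0.19) and with the mean of its probe sets (0.17). It stayed above 0.05 in the other settings. Its p by limma was 0.19 without H1781, 0.203 without H1781 and H3122 and 0.34 on the split at the mean SF2. With the 95th percentile of the ERCC probe sets as threshold, 21 members were above it in all lines, 9 in some and 1 in none. The slopes of ALDH6A1 and ALDH4A1 kept their sign in every setting. The sample of 15 lines with 1 array each, paralogs that probe sets may not separate and SF2 values taken from a separate assay limit all of these results. No paired analysis was possible because each line was measured once and the labels carry no replicate numbers.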
